A study of Fundulus heteroclitus with 4 samples.

Results

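The microRNAs (miRNAs) of Atlantic killifish (Fundulus heteroclitus) embryos from Scorton Creek (SC), a tidal creek in Massachusetts, were compared between embryos of 12 days post-fertilisation (dpf) and a pool of embryos of 1 to 15 dpf. The comparison rests on 2 of the 4 libraries of the study, 1 for each stage. The other 2 are the same stages of embryos from New Bedford Harbor (NBH), also in Massachusetts, and their values are given beside those of SC. Per the labels, all 4 groups were F1 embryos obtained by fertilising gametes of adults in vitro, raised in full strength sea water at 22 °C with no chemical agent named. The pool spans day 12 as well, so it is not a stage apart from 12 dpf but an average over development that contains it, and how many embryos of each day it held is not given in the labels. Whole embryos were used, so fewer cells of a type and less RNA per cell cannot be told apart. There is 1 library a side, so the differences lack replicates and carry no p-values.

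The 2 tables of SC were joined by the listed mature sequence, and by name for miR-27c and miR-92a, and the raw read counts of their entries were compared. The SC pool held 1601093 reads over 210 entries and the 12 dpf library 2343143 reads over 208 entries, and 203 entries were listed in both. In all 4 libraries 217 entries were found, 192 of them reached 10 reads in at least 2 libraries, and 191 of these could be given an SC ratio. miR-1 of muscle, miR-124 of neurons, miR-203a of skin, miR-204a of the eye, miR-122 of the liver and miR-451 of blood each had at least 365 reads in every library. The SC library of 12 dpf stood apart from the rest: across miRNAs its Spearman rho with the other 3 was 0.881 to 0.922, while those 3 had 0.936 to 0.953 with each other. In it 14 entries had levels 8-fold or more under the median level of the remaining 3, against 2, 5 and 3 such entries in the SC pool, the NBH pool and NBH at 12 dpf. Entries 8-fold or more above that median numbered 2 at 12 dpf in SC, against 2, 0 and 2 in the same order. Every SC ratio below uses the SC library of 12 dpf, so none of these can be given without it. The 14 include miR-9, miR-22b, miR-124, miR-126, miR-143, miR-144, miR-196a, miR-430a (A), miR-430b (A), miR-462, miR-727, miR-730 and miR-2184.

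A miRNA is a short RNA that guides an Argonaute protein to messenger RNAs, which are then degraded or translated less. Pairing runs mainly through the seed, the bases after the first one at the 5′ end, so miRNAs with a common seed share many targets. Many miRNAs belong to one tissue or one phase of development, and their levels in whole fish embryos follow which tissues have formed. The embryos of this killifish develop slowly within the chorion, and at the later stages of the pool muscle, skin, nervous system, heart and liver are already present.

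The following mature sequences are shown because the differences between the libraries turn on them. They are the sequences listed in the deposited tables, written 5′ to 3′ in DNA letters, and capitals mark the seed, bases 2 to 8. The muscle pair miR-1 and miR-206 has one seed, and both miR-430 entries shown have another, from which the miR-17 group differs by a shift of the register.
miR-1: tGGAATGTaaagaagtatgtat
miR-206: tGGAATGTaaggaagtgtgtgg
miR-430a (A): tAAGTGCTatttgttggggtag
miR-430d: tAAGTGCTtctctttggggttg
miR-17a: cAAAGTGCttacagtgcaggta
miR-20b: cAAAGTGCtcacagtgcaggtag
miR-93: aAAAGTGCtgtttgtgcaggta
miR-16b: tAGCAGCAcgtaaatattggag
The next set holds miRNAs of epithelia, where entries of one seed went in different directions.
miR-200b: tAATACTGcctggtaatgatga
miR-200c: tAATACTGcctggtaatgatgc
miR-429: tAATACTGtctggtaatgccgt
miR-205: tCCTTCATtccaccggagtctg
miR-203a: gTGAAATGtttaggaccacttg
miR-203b: gTGAAATGttcaggaccacttg
The third set holds miRNAs with known roles that lay more than 4-fold below the pool at 12 dpf in SC, and the nervous system miRNA miR-129, which was higher by the widest.
miR-126: tCGTACCGtgagtaataatgc
miR-144: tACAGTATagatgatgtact
miR-143: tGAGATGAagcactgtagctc
miR-196a: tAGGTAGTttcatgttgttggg
miR-9: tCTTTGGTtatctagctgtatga
miR-124: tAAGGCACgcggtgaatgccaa
miR-462: tAACGGAAcccataatgcagct
miR-122: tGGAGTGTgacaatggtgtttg
miR-129: cTTTTTGCggtctgggcttgct
The last set shows a seed shared by abundant and rare entries, and the most abundant let-7.
miR-130c: cAGTGCAAtattaaaagggcat
miR-301c: cAGTGCAAtagtattgtcatag
miR-454b: tAGTGCAAtattgcttataggg
let-7a: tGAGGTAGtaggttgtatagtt

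Levels are given as CPM, counts per 1000000 reads, after scaling of library sizes by TMM, and differences as the log2 ratio of 12 dpf to the pool with its 95% interval in parentheses, which covers counting error only. An entry was called higher or lower when it differed by at least 2-fold and its interval excluded equality. At 12 dpf in SC, 51 of 191 entries were called higher (26.7%) and 57 lower (29.8%), with 83 called neither and a median ratio of 0.16 over all 191. These shares over all 191 entries are the background for the counts by list below. At 4-fold or more 14 were higher and 29 lower, and at 8-fold or more 8 were higher and 13 lower. All 13 are among the 14 entries low in the 12 dpf library. Those 14 were picked by their level in that library, so the overlap was largely set in advance. The 51 entries called higher held 7.70% of the reads of the pool and 23.4% of those at 12 dpf. The 57 called lower held 29.9% and 10.6%. Of the 14 entries that lay 8-fold or more under the median of the other libraries, 13 are among the 57 and 1 had no ratio. Such an entry need not be low in that library alone: miR-124 had 184 CPM at 12 dpf in SC and 223 in the NBH pool. Among the other 178 entries 51 were higher and 44 lower. The 14 were picked by their low level at 12 dpf in SC, so leaving them out takes away lower calls by that choice.

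**Figure D1:**
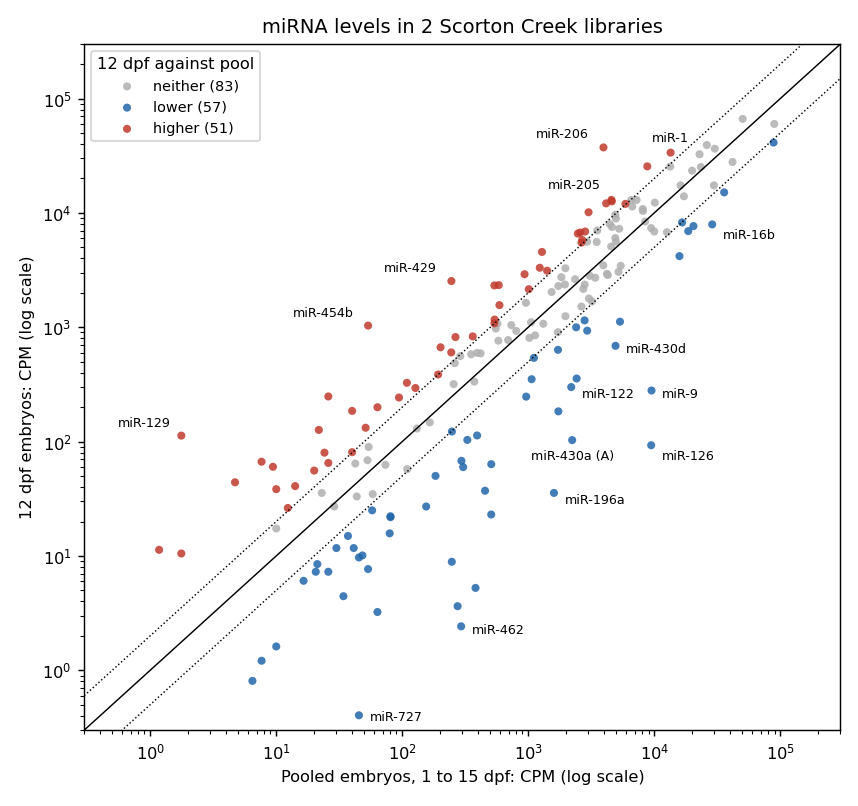
Level of each of the 191 miRNAs in the pooled embryos (x axis, CPM, log scale) and in the 12 dpf embryos (y axis, CPM, log scale) of Scorton Creek, 1 point per miRNA. The solid line is equality and the dotted lines are 2-fold differences. The points called lower reach farther from the line than those called higher. miR-126 and miR-462, among the farthest, belong to the 14 entries low in the 12 dpf library. miR-206 is the abundant miRNA farthest above the line.

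Both libraries were led by the same few miRNAs. In the pool the eye miRNA miR-204a stood first at 89564 CPM, followed by miR-130c at 88405 and the skin miRNA miR-203a at 50291. At 12 dpf miR-203a was first at 66356 CPM, ahead of miR-204a at 59974 and miR-130c at 41203. The 10 most abundant held 47.1% of the reads of the pool and 42.2% at 12 dpf. miR-206 moved from rank 52 to rank 5 and miR-1 from rank 19 to rank 7, which placed both muscle miRNAs among the first 10. In the other direction miR-16b moved from rank 8 to rank 34 and miR-126 from rank 25 to rank 137. Differences were wider among rare miRNAs: the median size of the log2 ratio was 1.80 over the 64 entries of lowest mean level, 1.0 over the middle 63 and 0.84 over the 64 of highest mean level.

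Muscle miRNAs differed from each other. miR-206, a miRNA of skeletal muscle, had 3953 CPM in the SC pool, 37365 at 12 dpf in SC, 7226 in the NBH pool and 31616 at 12 dpf in NBH. In each population its 12 dpf level stood above both pools. Its SC ratio was 3.24 (3.20 to 3.28), or 9.45-fold, and the NBH ratio was 2.13. The tables name a pair of reference hairpins for miR-206, and the reads that matched a single one numbered 1275 and 2999, with a ratio of 0.51 that was not called. miR-1, which skeletal and heart muscle share, had 13476 CPM in the SC pool, 33656 at 12 dpf in SC, 11863 in the NBH pool and 20590 at 12 dpf in NBH. Its ratio was 1.32 (1.30 to 1.34) in SC and 0.80 in NBH, the second under 2-fold. The seed that these 2 entries share took 1.85% of the reads of the SC pool and 7.50% at 12 dpf. The miR-133 entries, which vertebrate genomes encode beside miR-1 and miR-206, did not follow them: miR-133a stood at -0.33 and miR-133b at 0.40, neither called. miR-133c was lower at -1.79 (-2.49 to -1.17), from 70 reads in the pool and 29 at 12 dpf. miR-499, which lies within a myosin heavy chain gene and marks heart and slow muscle, was lower at -1.79 (-2.0 to -1.59), with 393 CPM in the pool and 113 at 12 dpf. Of the 6 muscle entries 2 were thus higher, 2 lower and 2 neither, with a median of 0.04 that was -0.04 in identical reads. Over all 191 entries 26.7% were higher and 29.8% lower.

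Epithelial miRNAs also went in both directions, with 4 of 9 entries higher, 3 lower and 2 neither and a median of 0.40. Calls in both directions were also common over all 191 entries, at 26.7% higher and 29.8% lower. The miR-200 family keeps cells in the epithelial state, and in zebrafish it is found in skin and olfactory epithelium. miR-429 had 246 CPM in the SC pool, 2536 at 12 dpf in SC, 665 in the NBH pool and 1073 at 12 dpf in NBH. The SC pool was the lowest of these 4 levels and SC at 12 dpf the highest, and the SC ratio was 3.37 (3.22 to 3.51). miR-200a was higher as well at 1.38 (1.33 to 1.43), and so was the rare miR-200c at 1.91 (1.18 to 2.78) from 17 and 95 reads. miR-200b, which differs from miR-200c by A22C (miR-200b has A at position 22 counted from the 5′ end and miR-200c has C), was lower at -1.65 (-1.72 to -1.58). In NBH miR-200b stood at -1.73. miR-205, a miRNA of the epidermis, had 4569 CPM in the SC pool, 12996 at 12 dpf in SC, 7465 in the NBH pool and 7412 at 12 dpf in NBH. The SC level at 12 dpf was 1.74-fold above the highest of the other 3, and the SC ratio was 1.51 (1.47 to 1.54). miR-203a, which acts in keratinocyte differentiation in mammals, was not called at 0.40 (0.39 to 0.41), although it was the most abundant miRNA at 12 dpf. miR-203b, which differs from it by T11C, was lower at -1.96 (-2.10 to -1.83).

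**Figure D2:**
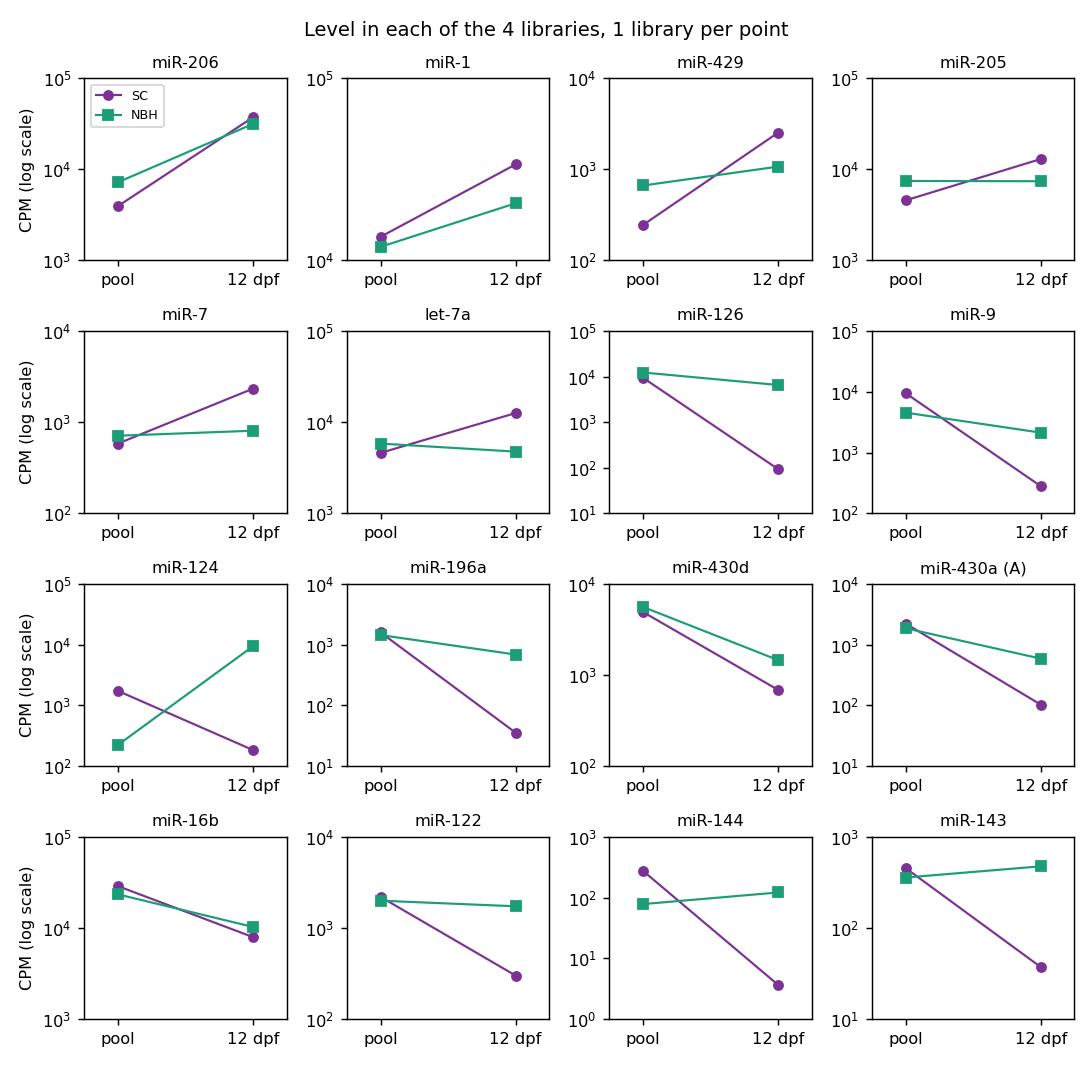
Level (CPM, log scale) of 16 miRNAs in each of the 4 libraries, 1 library per point, with lines joining the pool to 12 dpf within Scorton Creek (SC, circles) and New Bedford Harbor (NBH, squares). miR-206, miR-1, miR-430d, miR-430a (A) and miR-16b run the same way in both populations, while miR-124 runs in opposite directions and miR-126, miR-144 and miR-143 drop steeply in SC alone.

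Nervous system miRNAs were split. miR-9, a miRNA of neural progenitors, had 9507 CPM in the SC pool, 279.7 at 12 dpf in SC, 4555 in the NBH pool and 2131 at 12 dpf in NBH. Both 12 dpf libraries lay below both pools, and the SC level at 12 dpf was the lowest by far, with a ratio of -5.09 (-5.20 to -4.98). miR-124, the most neuron-specific miRNA of vertebrates, had 1734 CPM in the SC pool, 184 at 12 dpf in SC, 223 in the NBH pool and 9448 at 12 dpf in NBH. The order of the stages was reversed between the populations, with an SC ratio of -3.24 (-3.38 to -3.09) and an NBH ratio of 5.40. Both miR-9 and miR-124 are among the 14 entries low in the SC library of 12 dpf. Other miRNAs of the nervous system were higher. miR-132 and miR-212 share a primary transcript in mammals, where neuronal activity induces it, and stood at 1.11 (1.0 to 1.22) and 2.20 (1.84 to 2.60). miR-153a was at 1.64 (1.56 to 1.72) and miR-219, which acts in the formation of myelin, at 1.72 (1.24 to 2.25). miR-129 had the highest ratio of all 191 entries at 5.82 (4.43 to 8.28), but from 3 reads in the pool and 279 at 12 dpf, with 18 and 49 in NBH. Of 16 entries 5 were higher, 4 lower (miR-137 (dre) and miR-153c besides miR-9 and miR-124) and 7 neither, with a median of 0.36. The split is near that over all 191 entries, of which 26.7% were higher and 29.8% lower. The abundant miR-128 was close to the threshold at 0.92 (0.90 to 0.95), and was called higher in identical reads at 1.57 (1.48 to 1.66). The motor neuron miRNA miR-218a was at -0.30. In identical reads 7 of the 16 entries were higher, 4 lower and 5 neither, with a median of 0.73. Over the 179 entries with identical reads 29.6% were higher and 29.1% lower.

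The 8 sensory entries were all called neither, which held for no other of the 19 lists. They included the most abundant miRNA of the pool, miR-204a of the eye, at -0.58 (-0.59 to -0.57). The hair cell and photoreceptor cluster stayed under 2-fold, with miR-96 at 0.16, miR-182 (dre-5p) at -0.25 and miR-183 at 0.71 (0.67 to 0.74). In identical reads miR-183 was called higher at 1.09 (1.02 to 1.15). Over the list, identical reads gave 1 entry higher, 1 lower and 6 neither. Both entries of miR-184, a miRNA of lens and cornea, lay below 0 at -0.80 and -0.66. The median of the list was -0.41.

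The miR-430 family was lower throughout in all reads. In zebrafish this family is produced in great amounts when the embryonic genome becomes active and clears maternal messenger RNA. miR-430d, the most abundant entry, had 4926 CPM in the SC pool, 688 at 12 dpf in SC, 5606 in the NBH pool and 1462 at 12 dpf in NBH. Both 12 dpf libraries stood below both pools, with ratios of -2.84 (-2.92 to -2.76) in SC and -1.94 in NBH. miR-430a (A) had 2231 CPM in the SC pool, 103 at 12 dpf in SC, 1871 in the NBH pool and 591 at 12 dpf in NBH, again with both 12 dpf levels below both pools. Its ratios were -4.43 (-4.62 to -4.25) in SC and -1.66 in NBH. All 7 measured entries were called lower, and 5 of the 7 were also called lower in NBH. In identical reads 5 of the 7 entries had an SC ratio, of which 2, miR-430d and miR-430a (A), were lower and 3 neither. Summed over the seed, the family fell from 0.868% of the reads of the pool to 0.0902% at 12 dpf, a log2 ratio of -3.29 (-3.36 to -3.23) on the scale of seed sums. miR-430a (A) and miR-430b (A) are among the 14 entries low in this library. The 7 entries share a seed and several are near-identical, such as miR-430c (B) and miR-430d, which differ by A21T. A read of one can be counted for another, so the 7 are not separate observations. miR-430b (A) had 0 identical reads in all 4 libraries, and reads that match a single reference hairpin were 0 for miR-430d and miR-430a (A).

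The families tied to cell division were lower or split. The miR-17-92 clusters, which promote proliferation in mammals, had 1 of 15 entries higher, 7 lower and 7 neither, with a median of -0.93. Their summed reads changed little, from 8.43% of the pool to 7.91% at 12 dpf, a log2 ratio of -0.08. The abundant miR-19a and miR-19b were not called, at 0.42 and 0.23. miR-17a fell just past the threshold at -1.01 (-1.03 to -0.98), while miR-20a of the same seed was at 0.35 (0.33 to 0.38). miR-92a, listed with 1 base fewer in the SC pool, had 5343 CPM in the SC pool, 1119 at 12 dpf in SC, 3621 in the NBH pool and 875 at 12 dpf in NBH. Both 12 dpf levels lay below both pools, with ratios of -2.26 (-2.32 to -2.19) and -2.05. For miR-20b, miR-93, miR-18b and miR-363 the calls in SC and NBH were opposite: -1.60 and 2.59 for miR-20b, -1.26 and 4.81 for miR-93. miR-18a was the member called higher, at 1.75 (1.71 to 1.80), from 3009 CPM to 10133. miR-18b, which differs from miR-18a by C11T, was lower at -2.32 (-2.89 to -1.81) from 135 and 39 reads.

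The miR-15 and miR-16 family, which restrains the cell cycle in mammals, was lower in 8 of 9 entries, with a median of -1.80 and 1 entry, miR-15b (fru,tni), called neither. miR-16b held most of its reads and had 28816 CPM in the SC pool, 7932 at 12 dpf in SC, 23386 in the NBH pool and 10265 at 12 dpf in NBH. Both populations stood lower at 12 dpf than either pool, with ratios of -1.86 (-1.89 to -1.84) and -1.19. In NBH 1 of the 9 entries was called lower. The same 9 entries include near-identical sequences, such as miR-16a and miR-16b, which differ by T21A.

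**Figure D3:**
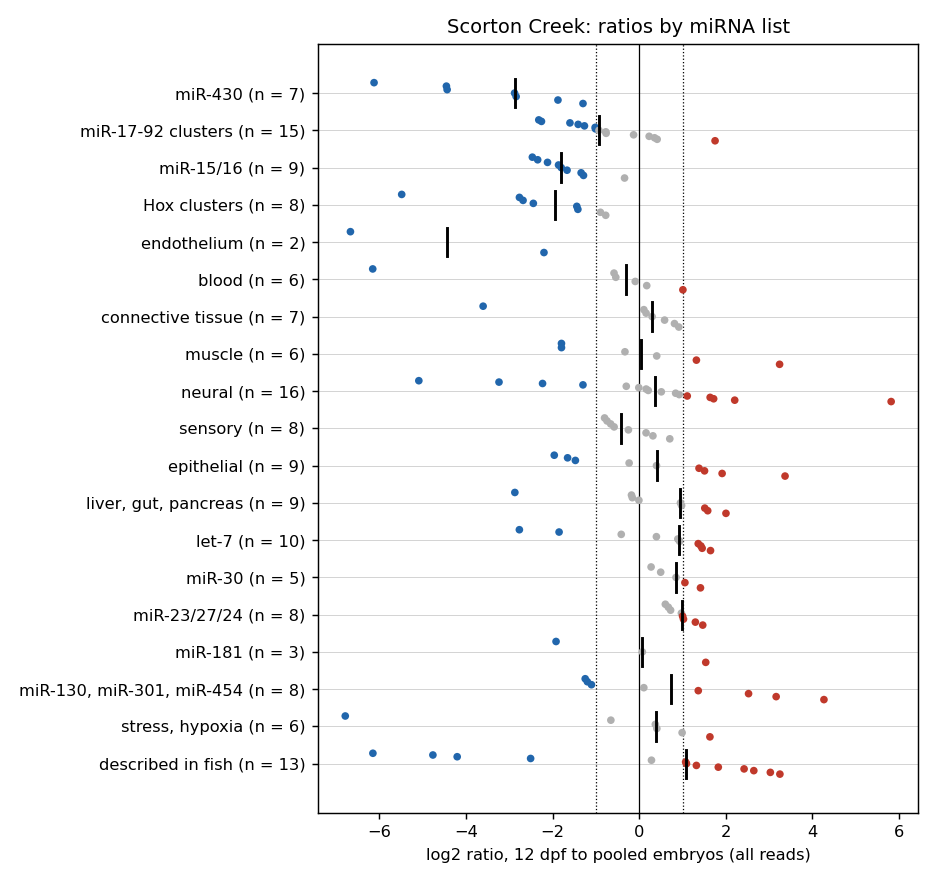
Log2 ratio of 12 dpf to pooled embryos in Scorton Creek (x axis) for the measured entries of 19 lists of miRNAs (y axis), 1 point per entry, red where called higher, blue where called lower and grey where neither. Black bars are list medians and dotted lines mark 2-fold. miR-430, miR-15/16 and the Hox clusters lie to the left, with medians of -2.88, -1.80 and -1.94, and most other lists hold entries on both sides.

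The miRNAs encoded between Hox genes, several of which repress Hox messenger RNAs and so act in the patterning of the trunk, had 0 entries higher, 6 of 8 lower and 2 neither. miR-196a had 1599 CPM in the SC pool, 35.6 at 12 dpf in SC, 1447 in the NBH pool and 690.3 at 12 dpf in NBH. The pools were alike, and the SC level at 12 dpf was far below the other 3, with ratios of -5.48 (-5.81 to -5.18) in SC and -1.07 in NBH. The rare miR-196b and miR-196d were lower at -2.44 (-5.11 to -0.80) and -2.68 (-6.22 to -0.81), from at most 13 reads in the pool. The 5 miR-10 entries lay between -2.76 and -0.77. miR-10b had 29720.2 CPM in the pool and 17399 at 12 dpf and was not called, at -0.77 (-0.79 to -0.75). In identical reads, 7.44% of its reads in the pool and 1.24% at 12 dpf, it was called lower at -3.17 (-3.30 to -3.04). miR-10d (dre), miR-10a and miR-10d (tni,fru) were lower, at -1.42, -1.44 and -2.76. miR-10d (tni,fru) carries the letters of miR-10d (dre) with 2 more at its 3′ end, so a read may be counted for either. Summed over their seed the miR-10 entries took 7.10% of the reads of the pool and 3.47% at 12 dpf.

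Vascular, blood and connective tissue miRNAs held some of the widest differences. miR-126, which endothelial cells make from an intron of Egfl7 and which keeps blood vessels intact in zebrafish, had 9453 CPM in the SC pool, 93.0 at 12 dpf in SC, 12408 in the NBH pool and 6587 at 12 dpf in NBH. The other 3 libraries lay within 1.88-fold of each other, and SC at 12 dpf was 70.9-fold below the lowest of them. Its ratio was -6.66 (-6.86 to -6.48), or 101-fold lower, from 16048 and 230 reads. The near-identical miR-126b, which differs by A18G, was lower at -2.20 (-2.95 to -1.55). The seed that both share went from 1.01% of the reads to 0.0108%.

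miR-144 and miR-451 share a primary transcript in vertebrates and act in red blood cells. miR-144 had 275 CPM in the SC pool, 3.64 at 12 dpf in SC, 78.3 in the NBH pool and 122 at 12 dpf in NBH. SC at 12 dpf was the lowest and the SC pool the highest of the 4, with a ratio of -6.15 (-7.38 to -5.30) from 467 and 9 reads. miR-451 had 9989.8 CPM in the SC pool and 6873 at 12 dpf and was not called, at -0.54 (-0.57 to -0.51). In identical reads, 12601 in the pool and 6793 at 12 dpf, miR-451 was called lower at -1.25. A like split in all reads was seen between miR-143 and miR-145, which share a transcript in smooth muscle. miR-143 had 454 CPM in the SC pool, 37.2 at 12 dpf in SC, 358 in the NBH pool and 476 at 12 dpf in NBH, with SC at 12 dpf below the other 3. Its ratio was -3.60 (-3.94 to -3.30), and that of miR-145 was 0.30 (0.26 to 0.34). Other miRNAs of these lists were not called: miR-223 of granulocytes was at -0.58, miR-140 of cartilage at 0.16, and miR-199 and miR-214, which share a transcript, at 0.59 and 0.11. Blood had 1 of 6 entries higher (miR-142b (tni), at 1.01 and at -0.78 in identical reads, of which there were 11 and 8), 1 lower and 4 neither, and connective tissue 0 of 7 higher, 1 lower and 6 neither. In identical reads blood had 0 of 6 entries higher, 3 lower and 3 neither, with a median of -1.05. Connective tissue had 1 of 7 higher, 1 lower and 5 neither in these reads.

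Liver, gut and pancreas were led by different directions. miR-122, the main miRNA of hepatocytes, had 2194 CPM in the SC pool, 299.9 at 12 dpf in SC, 1994 in the NBH pool and 1730.1 at 12 dpf in NBH. SC at 12 dpf was below the other 3, which lay within 1.27-fold of each other, and the SC ratio was -2.87 (-2.99 to -2.76). miR-192 and miR-194, which share a transcript and mark gut and kidney, lay above the pool: miR-192 was not called at 0.98 (0.95 to 1.01) and miR-194a was higher at 1.58 (1.35 to 1.82). Among pancreas miRNAs miR-216b was higher at 1.51 (0.88 to 2.24), miR-217 was not called at 0.95 (0.80 to 1.10), and miR-375 of the islets was at -0.16. In identical reads miR-217 was called higher at 2.02 (1.79 to 2.25). miR-216a (A) was at -0.01 in all reads and was called lower in identical reads at -2.49 (-3.10 to -1.96), from 147 and 33 reads. miR-7, found in islets and brain, had 583 CPM in the SC pool, 2338 at 12 dpf in SC, 711 in the NBH pool and 807 at 12 dpf in NBH. The other 3 libraries were alike and SC at 12 dpf stood above them, with a ratio of 2.0 (1.91 to 2.10). miR-7a, which carries the same letters with 2 more at its 3′ end, was at -0.18 (-0.22 to -0.13). A read may be counted for either, and the sum over their seed was 0.33 (0.29 to 0.37) on the scale of seed sums, called neither. In identical reads, 59 in the pool and 339 at 12 dpf, miR-7 was called higher at 2.16. Of the 9 entries 3 were higher, 1 lower and 5 neither, with a median of 0.95.

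The let-7 family, which rises as cells differentiate in many animals, had 4 of 10 entries higher, 2 lower and 4 neither, with a median of 0.91. let-7a, its most abundant entry, had 4604 CPM in the SC pool, 12608 at 12 dpf in SC, 5829 in the NBH pool and 4755 at 12 dpf in NBH, with a ratio of 1.45 (1.42 to 1.49) in SC and -0.29 in NBH. Its reads that matched a single reference hairpin, of the several named for it, were 217 and 191, with a ratio of -0.91. The family took 1.17% of the reads of the SC pool and 2.53% at 12 dpf. Over all 191 entries 26.7% were higher and 29.8% lower. Other families of broad expression also had positive medians in SC. The miR-23, miR-27 and miR-24 clusters had 4 of 8 entries higher and 0 lower, with a median of 0.99 and a range of 0.60 to 1.47. In identical reads 4 of its 7 entries were higher and 1, miR-27b, was lower at -1.71 instead of 1.0. The miR-30 family had 2 of 5 higher and 0 lower, with a median of 0.85, and miR-29a and miR-29b, which repress collagens in mammals, were at 0.81 and 0.91, not called. In NBH the medians were negative, at -0.31 for let-7, -0.25 for the miR-23, miR-27 and miR-24 clusters and -0.27 for miR-30. There let-7 had 1 entry higher and 2 lower, the clusters 0 and 2, and miR-30 0 and 0. miR-27c was listed in the SC pool under the sequence of miR-218b, so what was counted for it there is uncertain.

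The seed of the miR-130, miR-301 and miR-454 family held entries at both ends. miR-130c had 88405 CPM in the SC pool, 41203 at 12 dpf in SC, 64916 in the NBH pool and 62674 at 12 dpf in NBH, and its ratio of -1.10 (-1.11 to -1.09) made it the most abundant of the 57 entries called lower. miR-130b was lower at -1.25 (-1.26 to -1.23), and miR-301c was at 0.11 (0.09 to 0.13). The rare miR-454b had 53.6 CPM in the pool and 1034 at 12 dpf, a ratio of 4.26 (3.97 to 4.59), and miR-454a and miR-301b were higher at 3.16 (2.20 to 4.47) and 2.52 (2.04 to 3.07). Identical reads of these were few. miR-454b had 1 in the pool and 19 at 12 dpf and kept its call. miR-454a had 0 and 2 and miR-301b 4 and 0, and neither call was kept. miR-301a, also called higher in all reads, had 12 and 4 and went the opposite way. Over the family 4 of 8 entries were higher, 3 lower and 1 neither, with a median of 0.74, while its summed reads fell from 15.7% of the library to 8.76%. In identical reads 2 were higher and 3 lower, with a median of -1.01. The miR-181 family was also split, with miR-181a higher at 1.54 (1.51 to 1.56), miR-181b lower at -1.92 (-1.95 to -1.89) and miR-181c at 0.07.

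miR-462 and miR-731 are encoded together in fish and respond to viral infection and low oxygen. miR-462 had 293 CPM in the SC pool, 2.43 at 12 dpf in SC, 119 in the NBH pool and 143 at 12 dpf in NBH, with SC at 12 dpf far below the other 3. Its ratio of -6.78 (-8.37 to -5.79) was the lowest of all 191, from 498 and 6 reads, while miR-731 was at 0.37 (-0.00 to 0.76), not called. miR-210, the classic miRNA of low oxygen, was at 0.99 (0.95 to 1.03) and miR-21 at 0.41 (0.34 to 0.48), neither called. In identical reads both were called higher, miR-210 at 1.14 and miR-21 at 1.02. miR-146a, which dampens innate immune signalling in mammals, was higher at 1.63 (1.49 to 1.78). Among 13 entries first described in fish 8 were higher, 4 lower and 1 neither, with a median of 1.09, for most of which no role can be stated here. Over all 191 entries 26.7% were higher and 29.8% lower. Of the 8, miR-733 and miR-2187 reached 10 reads only in the 12 dpf libraries. They had 2 and 3 reads in the SC pool and 28 and 26 at 12 dpf in SC. The filter thus kept them through the stage where they are high, and their calls add no support. The 4 lower were miR-727 at -6.15 (-12.13 to -4.29) from 77 reads and 1, miR-730 at -4.76 (-5.49 to -4.18), miR-2184 at -4.20 (-5.55 to -3.27) and miR-724 at -2.51 (-2.93 to -2.12). The highest of the 8 was miR-728 at 3.25 (2.82 to 3.74), from 44 and 614 reads, 1 and 3 of them identical. In identical reads the list had 2 of 10 entries higher, 2 lower and 6 neither.

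Outside the lists, 11 of 36 entries were higher and 4 lower, beside 26.7% higher and 29.8% lower over all 191 entries. miR-190b had 538 CPM in the pool and 2320.3 at 12 dpf, with a ratio of 2.11 (2.01 to 2.21). miR-22a rose from 4149 to 12113 CPM, at 1.55 (1.51 to 1.58), whereas miR-22b, of the same seed, had 83 reads in the pool and was not listed at 12 dpf. miR-1388 was higher at 1.73 (1.56 to 1.90), and miR-152 (fru,tni,ola) and miR-148, which share a seed, at 1.40 and 1.11. Of the lower entries miR-31 was at -3.0 (-3.26 to -2.76) with 0 identical reads in both libraries, and miR-100 at -1.42 (-1.45 to -1.40).

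When entries were grouped by seed, 103 seeds were measured, of which 40 had at least 2 entries, 128 entries in all. In 4 of the 40 all entries were called higher (miR-1 and miR-206, miR-132 and miR-212, miR-148 and miR-152, miR-190 and miR-190b) and in 4 all were called lower (miR-126, miR-196, miR-430 and the main seed of miR-15 and miR-16). In identical reads, 42 in the pool and 60 at 12 dpf, miR-190 was not called, at 0.16 (-0.44 to 0.76). miR-148 and miR-152 (fru,tni,ola) differ by T10A, and at most 0.49% of the reads of either were identical in SC. A read may thus be counted for either. In 7 seeds entries were called in both directions: those of miR-18, miR-200b and miR-429, miR-181, miR-130, let-7, miR-458 and miR-153. The sum over the miR-200b and miR-429 seed was 0.10 on the log2 scale (0.05 to 0.15), although its members ran from -1.65 to 3.37.

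**Figure D4:**
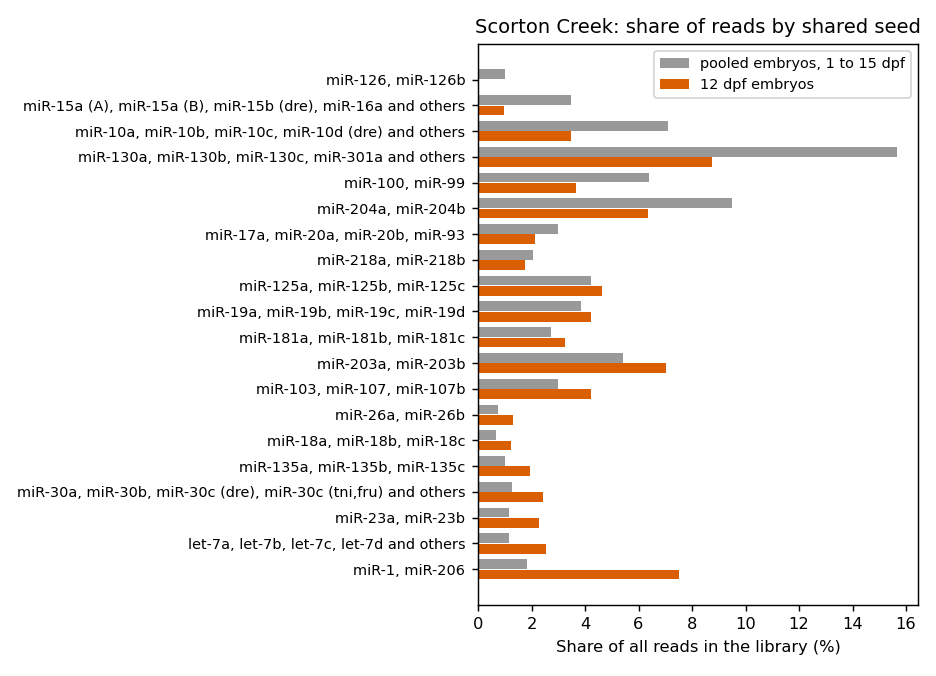
Share of all reads in the library (x axis, percent) for the 20 seed families with at least 2 entries and at least 1% of the reads in a Scorton Creek library, in pooled embryos (grey) and 12 dpf embryos (orange), ordered by their ratio. The miR-130 family is the largest in the pool at 15.7% and drops to 8.76%, and the miR-1 and miR-206 pair at the bottom goes from 1.85% to 7.50%.

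Near-identical entries were compared because a read may be counted for either. There were 57 pairs with one seed and at most 1 substitution, involving 88 entries. In 17 pairs both were called in the same direction (13 lower and 4 higher), in 36 at least 1 was not called, and in 4 the calls were opposite. These 4 were miR-153a and miR-153c (G17A, 1.64 and -2.23), miR-18a and miR-18b (C11T), miR-200b and miR-200c (A22C), and miR-458 (dre) and miR-458 (fru) (G11A, 3.08 and -1.04). Identical reads kept the opposite calls of the first 3 pairs. For miR-153c this rests on 12 identical reads in the pool and 5 at 12 dpf, at -1.52 (-3.48 to -0.01), an interval that barely excludes equality. For the miR-458 pair identical reads did not keep the calls: miR-458 (dre) had 10 identical reads in the pool and 5 at 12 dpf, with an interval that included equality.

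Each call was looked up in the reads identical to the listed sequence, which made up 59.9% of the reads of the pool and 59.8% at 12 dpf. These reads gave a ratio for 179 entries, of which 53 were higher (29.6%) and 52 lower (29.1%). Of 50 entries called higher that could be looked up, 35 had the same call, 1 the same direction under 2-fold, 9 an interval that included equality and 3 no identical read. For 2 the direction was opposite: miR-27b had 24 identical reads in the pool and 9 at 12 dpf (-1.71 (-3.06 to -0.62)), and miR-301a had 12 and 4 (-1.80 (-4.03 to -0.22)). Of 56 called lower, 38 had the same call, 2 the same direction under 2-fold, 12 an interval that included equality and 4 no identical read, and 0 were opposite. miR-206 stood at 3.91 (3.87 to 3.96), from 4071 and 78651 reads, and miR-429 at 4.0 (3.82 to 4.19). miR-126 kept its direction on few reads, 513 in the pool and 2 at 12 dpf. miR-16b (-1.83), miR-122 (-2.92) and miR-143 (-3.94) were near their values in all reads. miR-130c was at -0.93, under 2-fold. Of the 166 entries with at least 100 reads in an SC library, 47 had under 10% identical reads in both, so most reads counted for them are not identical to the mature sequence in the tables.

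**Figure D5:**
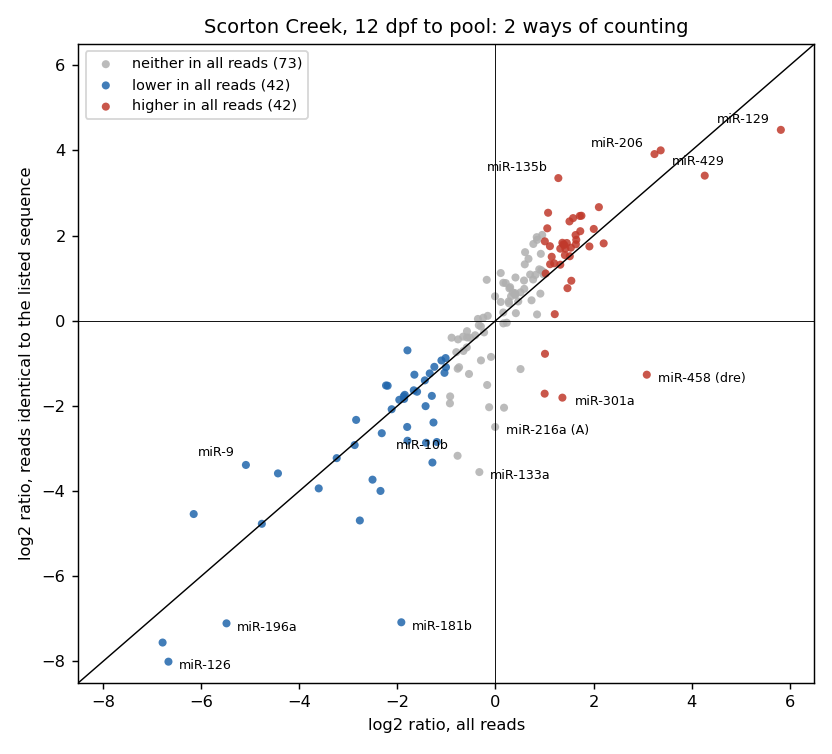
Log2 ratio of 12 dpf to pool in Scorton Creek from all reads (x axis) and from reads identical to the listed sequence (y axis) for 157 miRNAs with at least 10 identical reads over both libraries, colored by their call in all reads. The line is equality of both ratios, and ratios where a library has no identical read rest on the pseudocount of 0.5. Most points lie near the line, with miR-181b, miR-133a, miR-10b and miR-216a (A) far below it and miR-135b above.

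The share of identical reads itself differed between the stages for some entries. Over 110 entries with at least 500 reads in both SC libraries, the share was higher at 12 dpf by 10 percentage points or more in 17, lower by as much in 14 and within 10 points in 79. miR-135b went from 13.9% to 51.2%, with 29.2% and 26.3% in NBH, so the SC pool had the lowest and SC at 12 dpf the highest share of the 4 libraries. Its ratio was 1.28 in all reads and 3.35 in identical reads. miR-22a went from 83.1% to 48.0%, and NBH showed a like drop from 76.3% to 43.7%. miR-451 went from 74.3% to 40.0%, with 52.1% and 53.3% in NBH, and was lower in identical reads at -1.25 (-1.29 to -1.21). For 22 of the 110 the 2 ratios differed by more than 1 log2 unit, among them miR-133a, with 490 identical reads in the pool and 53 at 12 dpf, and miR-10b, with 3754 and 534.

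The NBH libraries share no library with SC, and their ratios of 12 dpf to the pool gave 27 of 192 entries higher (14.1%) and 23 lower (12.0%). Of the 51 entries higher in SC, 11 were called higher in NBH, 2 lower and 38 neither. Of the 57 lower in SC, 13 were lower in NBH, 8 higher and 36 neither. miR-206, the miR-430 entries, miR-92a, miR-16b and miR-9 were called the same way in both, miR-430b (B) and miR-430c (B) excepted. miR-429, miR-205, miR-7, miR-126, miR-122, miR-144 and miR-143 were called in SC and not in NBH, where they stood at 0.69, -0.01, 0.18, -0.91, -0.20, 0.63 and 0.41. Whether the 2 populations differ in these ratios was not tested, since each group has 1 library.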

How the data were processed

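Small RNA libraries were made with the SREK kit from total RNA with an integrity number above 9.8 and sequenced on SOLiD V3, as the labels' protocols state. For each library the authors deposited raw counts per mature miRNA, not normalised. Per the column headers, separate counts were given for exact reads (here identical reads, those with exactly the listed letters) and for unique reads. The unique reads are taken here as those that match 1 reference hairpin. The headers do not state this meaning, which was inferred from the hairpins named for each entry. Neither aligner nor allowed mismatches nor reference release is given in the sources used here. The entries are zebrafish, pufferfish and medaka miRNAs, and the letters A and B or a species tell same-named ones apart.

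Entries not listed were set to 0 counts. Kept entries reached 10 counts in 2 or more of the 4 libraries. TMM scaling in edgeR 4.0.16 under R 4.3.3 was used for CPM and for the log2 ratio with a pseudocount of 0.5. Intervals are exact conditional binomial (Clopper-Pearson) intervals at 95%. Reads without molecular identifiers are not independent molecules, so intervals cover counting error only. Identical reads were scaled by their own TMM, and those of miR-27c and miR-92a were not looked up because the pooled SC table lists other sequences for them. No test was possible with 1 library per group. The ratio rule was tested on simulated counts with 4-fold changes and counting error alone. Such counts hold no spread between libraries and no reads shared by near-identical entries, so the test does not bear on either. Alternatives were total counts, DESeq2 1.42.0 size factors, TMM of the 2 SC libraries or without the 5 most abundant miRNAs, a threshold of 4-fold, a pseudocount of 5, no filter, a minimum of 100 counts, identical reads, single-hairpin reads and seed sums. Intervals came from scipy 1.17.1, tables from pandas 2.3.3 and numpy 2.4.6, and plots from matplotlib 3.10.9, under Python 3.11.15.

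Named miRNAs are members of 19 lists, the 10 most abundant of each SC library, the 15 highest and 15 lowest ratios with at least 100 reads in an SC library (in all and in identical reads), entries sharing a seed with these, and those listed in 1 SC library. Members and lists were chosen with earlier results of these data known. The sequence and the separate values of 1 miRNA are not reported here.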

Additional observations from a re-analysis of the deposited data

Results flagged for a closer look

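For 10 miRNAs the ratio of 12 dpf to the pool was called in opposite directions in SC and NBH. Each difference, NBH minus SC on the log2 scale, compares 1 library per group and was not tested. It was 8.64 for miR-124 (-3.24 in SC and 5.40 in NBH), the widest of the 10. For 4 members of the miR-17-92 clusters it was 6.07 (miR-93, -1.26 and 4.81), 4.19 (miR-20b, -1.60 and 2.59), 4.19 (miR-18b, -2.32 and 1.88) and 3.44 (miR-363, -1.41 and 2.03, the latter from 2 and 13 reads). For miR-2184 it was 5.30 (-4.20 and 1.10). Among neural entries it was also 3.40 for miR-153c (-2.23 and 1.17) and 2.44 for miR-137 (dre) (-1.30 and 1.14). The other 2 were higher in SC and lower in NBH, with -5.67 for miR-27b (1.0 and -4.67) and -6.06 for miR-27c (1.30 and -4.77). In identical reads miR-27b was lower in SC too, at -1.71, and miR-27c was listed in the SC pool under another sequence. miR-124 and miR-2184 were at least 8-fold low in SC at 12 dpf against the median of the other libraries. miR-124 was also low in the NBH pool, with 365 reads beside 455 at 12 dpf in SC. In the NBH pool miR-93 had 204 reads and miR-20b 230, against 2472 to 7839 and 869 to 1902 elsewhere. At 12 dpf in NBH miR-27b had 18 reads and miR-27c 13, against 327 to 955 and 270 to 1490 elsewhere. The part of single libraries in the differences was not tested.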

How the results depend on the processing

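No paired analysis was possible because each group has 1 library and the labels give no replicate numbers. With no replicate, no library could be left out. Under a threshold of 4-fold 14 miRNAs were higher and 29 lower, by construction a part of the 51 and 57, and sums by shared seed gave 25 higher and 18 lower of 103 seeds. The other alternatives gave 34 to 62 higher and 43 to 59 lower. Scaling without the 5 most abundant miRNAs gave 62 higher and 53 lower, with the median ratio shifted by 0.18, identical reads shifted it by 0.16, single-hairpin reads by -0.18 and a filter of 100 counts by -0.14. The other scalings and pseudocounts shifted it by less than 0.02. Of the entries called in all reads, 35 of 51 and 46 of 57 were called the same way in single-hairpin reads, with 16 higher and 11 lower calls lost. Several hairpins were named for 7 of the 16 and 10 of the 11, and single-hairpin reads were 0 for 3 and 9. Called ratios that changed sign were let-7a in single-hairpin reads (-0.91, 217 and 191 reads) and, in identical reads, miR-142b (tni) (-0.78) and miR-27b (-1.71), and, on at most 12 identical reads a library, miR-301a (-1.80), miR-301b (-3.34), miR-458 (dre) (-1.27), miR-725 (-1.44) and miR-729 (-1.71). For miR-301b and miR-729 the 12 dpf library had 0 identical reads, so their values rest on the pseudocount. The cause was not tested. Depth limits rare entries: miR-462, miR-144, miR-727 and miR-2184 had at most 9 reads at 12 dpf, and their ratios depend on that few.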

Other observations

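Besides miR-22b, 12 entries were listed with reads in 1 SC library and did not reach 10 reads in at least 2 of the 4 libraries. At 12 dpf alone these were miR-722 with 7 reads, miR-202 with 6, let-7j (tni,fru) and miR-222b with 3 each, and miR-142b (dre) and miR-430j with 1 each. In the pool alone they were miR-7b with 9 reads, miR-15a (B) and miR-34b with 3 each, miR-216a (B) and miR-734 with 2 each, and miR-2189 with 1. miR-202, a miRNA of the gonads in fish, had its few SC reads at 12 dpf, but a count of 0 in the pool allows up to 3 reads there, and no difference was detectable at this depth.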
